A study of Mus musculus with 15 samples.

Results

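The AMP-activated protein kinase (AMPK) and mTOR complex 1 (mTORC1) genes were followed as 10 named genes in kidney RNA: 6 AMPK subunit genes, Prkaa1, Prkaa2, Prkab1, Prkab2, Prkag1 and Prkag2, the upstream kinase gene Stk11, and Mtor, Rptor and Tsc2. They were chosen by name, and all 10 were found among the 33058 genes of the deposited linear transcripts. Each gene value was the sum of FPKM (fragments scaled to the length of the transcript and to all mapped fragments of the library) over the gene's annotated transcripts and the new splice forms assembled at it. The 10 genes held 88 of the 129029 listed transcripts, and every gene was above 0 in every mouse. The samples were kidney tissue of male C57BL/6 mice (C57BL/6J in the study’s methods) at 3, 12 and 24 months of age, with 5 mice and 5 libraries at each age. The labels name no treatment, give all mice the same housing temperature and standard chow, and set them apart by age. The study set young (3-month-old) against old (24-month-old) kidneys. From KEGG enrichment of its differentially expressed mRNAs it reported AMPK signaling among the pathways it called aging-related. The 12-month-old mice were added here as a further age. The labels say nothing of shared cages or litters, so the p-values measure the spread between these mice.

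AMPK is a heterotrimer that senses the cell's energy state. A catalytic α subunit is held by a β subunit that acts as a scaffold and binds glycogen, and a γ subunit binds AMP, ADP or ATP. LKB1, the product of Stk11, phosphorylates the α subunit. Active AMPK phosphorylates enzymes of lipid synthesis and starters of autophagy, and it restrains mTORC1 through raptor (Rptor) and tuberin (Tsc2). mTORC1, built on the kinase mTOR, drives translation and ribosome production when amino acids and growth factors are at hand. The kidney tubule spends much ATP on sodium transport, and both kinases are studied in renal ageing. The abundance of an mRNA does not tell the activity of either kinase.

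The libraries held between 5.03 and 6.13 Gb of aligned bases (from the deposited coverage over FPKM) at 3 months, between 5.84 and 8.03 Gb at 12 months and between 6.07 and 7.33 Gb at 24 months. Summed markers of proximal tubule ranged from 1501 to 1847 FPKM at 3 months, from 1540 to 1917 at 12 months and from 1391 to 1747 at 24 months, and skeletal muscle markers were at most 0.0710 FPKM in any mouse, so the labelled tissue and its markers went together. Summed collecting duct markers ranged from 46.6 to 170.0 FPKM at 3 months, from 42.3 to 73.7 at 12 months and from 35.4 to 81.9 at 24 months. Summed leukocyte markers ranged from 53.2 to 135.8 FPKM at 3 months, from 106.4 to 140.3 at 12 months and from 77.7 to 167.4 at 24 months. Of the 5 leukocyte markers 3 had an unadjusted limma p under 0.05 between 24 and 3 months, where 14.9% of all genes did. Summed fibroblast markers ranged from 10.2 to 24.7 FPKM at 3 months, from 24.8 to 36.3 at 12 months and from 18.9 to 29.7 at 24 months, so the 3- and 12-month-old mice did not overlap. Summed adrenal cortex markers ranged from 1.05 to 1.75 FPKM at 3 months and from 1.87 to 3.24 at 24 months, also without overlap. Their part in the results below was not tested. In bulk kidney tissue, fewer cells of a type and less RNA per cell cannot be told apart. On the FPKM scale the median ratio over genes was 0.12 (log2) higher in the 24-month-old and 0.14 higher in the 12-month-old than in the 3-month-old libraries, and the sign of differences smaller than this turns on the scaling.

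By mean FPKM over the 15 mice, the order of the 10 genes was Mtor (39.6), Prkag2 (29.5), Stk11 (23.0), Prkaa2 (19.6), Tsc2 (19.2), Rptor (15.7), Prkab1 (15.4), Prkag1 (10.0), Prkaa1 (8.18) and Prkab2 (3.86). Mtor was above Prkag2 in 14 of 15 mice and Prkag2 above Stk11 in 13. Tsc2 was above Rptor in all 15 mice, and Prkaa1 was above Prkab2 in 14. Prkaa2 was above Tsc2 in 6 mice, Rptor above Prkab1 in 10, and Stk11 above Prkaa2 and Prkag1 above Prkaa1 in 11 each, so these neighbours were not set apart by the spread between mice. FPKM is per length of transcript, and a gene whose reads fall on many short overlapping transcripts gets a larger sum than one with a single full-length transcript. The transcript classes behind each sum are therefore given with each gene.

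**Figure D1:**
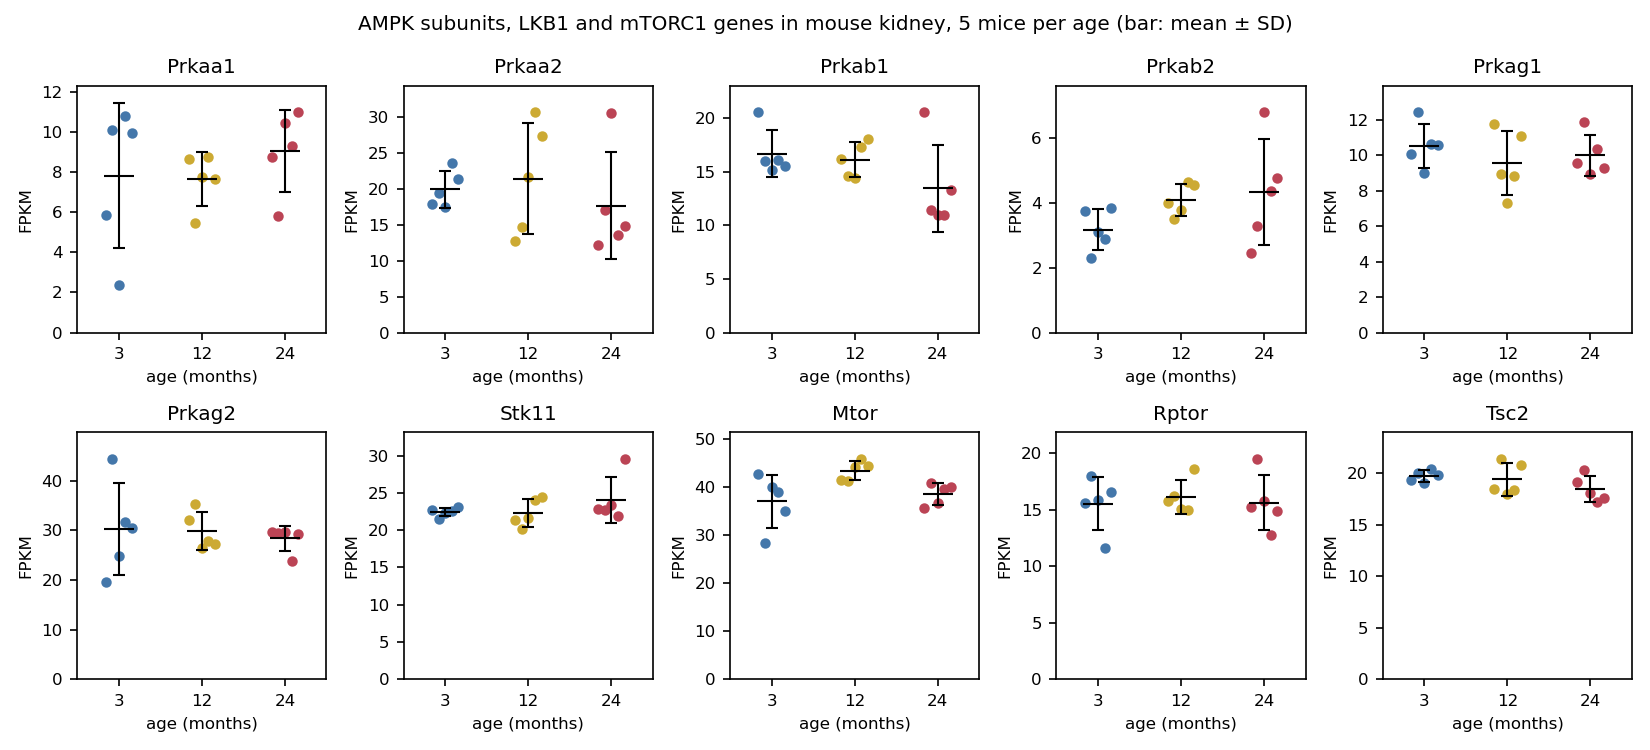
FPKM of each gene (vertical axes, starting at 0) in each mouse against age in months (horizontal axes); points are mice, and black bars are the mean ± SD of 5 mice. The ages overlapped for all 10 genes between 24 and 3 months and between 12 and 3 months, and Mtor was lower in every 24-month-old than in every 12-month-old mouse. The share of all genes without overlap is not given here.

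Among the 10 genes, 0 had an adjusted p under 0.05 in any comparison of ages (limma on log2(FPKM + 1), Benjamini-Hochberg over all genes tested). Between 24 and 3 months, 386 of 31755 genes (1.22%) passed this limit. The share was 0.25% between 12 and 3 months and 0.0031% between 24 and 12 months. At an unadjusted p under 0.05 there were 0 of the 10 genes between 24 and 3 months, where 14.9% of all genes lay under it. Between 12 and 3 months there were 2 (Mtor and Prkab2), against 14.3% of all genes. Between 24 and 12 months there was 1 (Mtor), against 6.43% of all genes. Shares of 0, 2 and 1 in 10 were near or under these backgrounds. The median log2 fold change of the 10 genes was -0.02, 0.03 and -0.06 in the same order of comparisons. The median over all genes tested was 0.02, 0.02 and -0.0013, and over genes with a mean of at least 1 FPKM it was 0.06, 0.08 and -0.02. The 3 comparisons share mice and are not independent. How often 2 ages lie apart without overlap among all genes, transcripts or circular RNAs is not given here. Lack of overlap is therefore stated below as a description of single features.

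The 95% intervals show how large a difference these data leave possible. Between 24 and 3 months, the interval of 1 of the 10 genes, Prkaa1, reached a 2-fold change (from -0.47 to 1.07 on the log2 scale). The intervals of Stk11 (from -0.09 to 0.27) and Tsc2 (from -0.22 to 0.03) were the narrowest. In the other comparisons of ages no interval of the 10 genes reached a 2-fold change, and the widest bounds were -0.93 and 0.84. With median-ratio scaling, 8 of the 10 genes had a log2 fold change under 0 between 24 and 3 months, with a median of -0.13. Stk11, Mtor and Rptor then had the opposite sign to that on the FPKM scale. Tsc2 had a log2 fold change of -0.21 (adjusted p = 0.0942) and Prkab1 of -0.43 (adjusted p = 0.268) with that scaling.

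**Figure D2:**
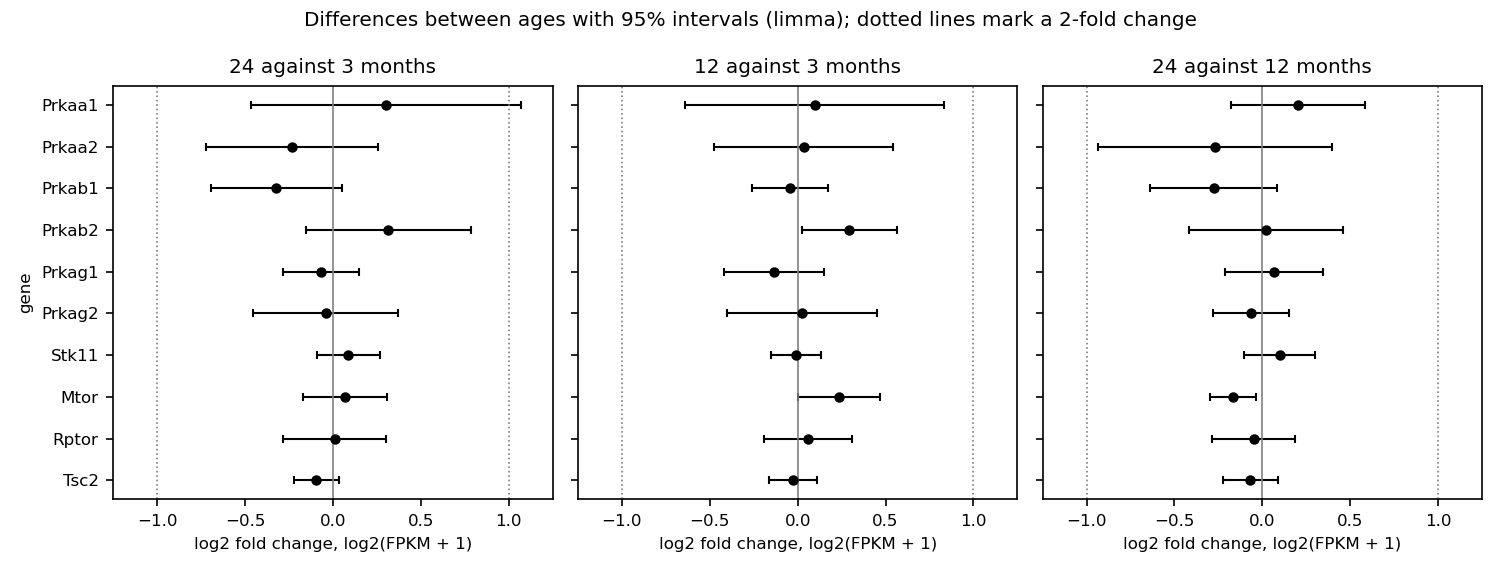
Log2 fold change on the log2(FPKM + 1) scale (horizontal axes) of each gene (vertical axis) in the 3 comparisons of ages; points are limma estimates, whiskers are 95% intervals and dotted lines mark a 2-fold change. The interval of Prkaa1 between 24 and 3 months, from -0.47 to 1.07, is the one that crosses a dotted line.

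The catalytic subunits are encoded by Prkaa1 (α1, chromosome 15, 5143861 to 5181899, plus strand, GRCm38) and Prkaa2 (α2, chromosome 4, 105026977 to 105109890, minus strand). Prkaa2, the form that prevails in muscle and heart, was also the more abundant in these kidneys. Prkaa1 was at 7.82 ± 3.62 FPKM at 3 months, 7.66 ± 1.32 at 12 months and 9.06 ± 2.03 at 24 months (SD, n = 5). The wide spread at 3 months came from replicate 7 at 2.37 FPKM, while replicates 5, 6, 8 and 9 were at 5.85, 10.1, 10.8 and 9.95. The log2 fold change between 24 and 3 months was 0.30 (standard error 0.34) and without replicate 7 it was -0.01. Prkaa2 was at 19.9 ± 2.58, 21.4 ± 7.74 and 17.6 ± 7.43 FPKM at the 3 ages (SD, n = 5). In the old kidneys replicate 33 was at 30.5 FPKM and the other mice were between 12.2 and 17.03. Its log2 fold change between 24 and 3 months was -0.23 (standard error 0.22), and without replicate 33 it was -0.44 (limma adjusted p = 0.153). Replicate 33, the highest old mouse, was singled out after its value was seen, and that choice favours a larger fall.

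Prkaa1 carried the clearest transcript structure of the 10 genes. Its protein-coding transcript ENSMUST00000051186 of 9 exons held 91.0% of the gene's FPKM on average and led in 14 of 15 mice. The exception was 3-month-old replicate 8, in which an assembled form of 8 exons, MSTRG.12011.2, took 51.1% of the gene value. In 12-month-old replicate 20 the lead was narrow. There ENSMUST00000051186 was at 4.40 FPKM and the assembled 10-exon form MSTRG.12011.3 at 4.37 FPKM, or 49.8% of the gene value. For Prkaa2, the protein-coding transcript ENSMUST00000030243 held 60.5%, and the assembled forms MSTRG.25175.1 and MSTRG.25175.3 held 26.1% and 8.32%. The share of Prkaa2 in the sum of both α genes was 73.2 ± 9.03% at 3 months, 72.4 ± 7.57% at 12 months and 64.8 ± 8.93% at 24 months (SD, n = 5). The difference of -8.38 percentage points between 24 and 3 months had an exact permutation p of 0.127 (2-sided, adjusted p = 0.375 over the 9 share comparisons).

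**Figure D3:**
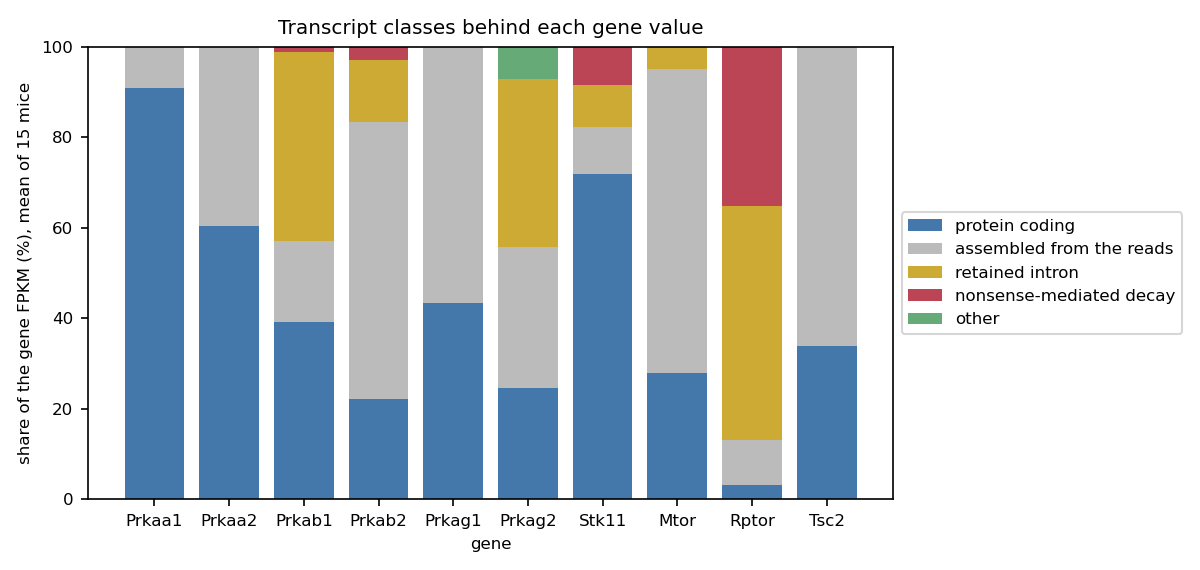
Mean share of each gene's FPKM over 15 mice (vertical axis, percent) by transcript class; gene on the horizontal axis, class by colour, with annotated classes from GENCODE M21 and splice forms assembled by the authors in grey. Protein-coding transcripts held 91.0% of the FPKM of Prkaa1 and 3.14% of that of Rptor.

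The β subunits are encoded by Prkab1 (β1, chromosome 5, 116013561 to 116024548, minus strand) and Prkab2 (β2, chromosome 3, 97658193 to 97673812, plus strand). Prkab1 was at 16.7 ± 2.18 FPKM at 3 months, 16.1 ± 1.62 at 12 months and 13.5 ± 4.08 at 24 months (SD, n = 5). By mouse, the young kidneys were at 20.5, 16.0, 15.2, 16.1 and 15.6 FPKM and the old ones at 20.5, 11.5, 11.01, 10.96 and 13.3, with 1 high mouse at each of these ages (replicates 5 and 31). Apart from replicate 31, every old kidney was below every young one. The log2 fold change between 24 and 3 months was -0.32 (standard error 0.17, limma adjusted p = 0.416), and without replicate 31 it was -0.48 (adjusted p = 0.0853). Replicate 31, the highest old mouse, was singled out after its value was seen. That choice favours a larger fall and a small p, so no conclusion is drawn from it. Prkab2, the rarest of the 10 genes, was at 3.73, 2.30, 3.09, 2.89 and 3.83 FPKM at 3 months. It was at 3.98, 3.51, 3.77, 4.63 and 4.53 FPKM at 12 months and at 2.46, 3.29, 6.77, 4.35 and 4.76 FPKM at 24 months. The 12-month-old mice lay in the upper part of the young range or above it, and the old mice spread over both. Between 12 and 3 months the log2 fold change of Prkab2 was 0.29 (standard error 0.12, limma adjusted p = 0.313), and between 24 and 3 months it was 0.31 (standard error 0.21, adjusted p = 0.540).

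The share of Prkab2 in the sum of both β genes was 15.9 ± 2.62% at 3 months, 20.2 ± 0.733% at 12 months and 25.2 ± 9.95% at 24 months (SD, n = 5). In the 2-sided exact permutation test the difference of 4.24 percentage points between 12 and 3 months had p = 0.0159 and an adjusted p of 0.143 over the 9 comparisons. The difference of 9.21 points between 24 and 3 months had an exact permutation p of 0.0714 (adjusted p = 0.321). Replicate 31 had the lowest share of all 15 mice, 10.7%. Without it the 24-month-old mean lay 12.8 points above that at 3 months (exact permutation p = 0.00794, the smallest that 4 mice against 5 can give here). This mouse was left out because its share was seen to be the lowest. That choice itself favours a small p, so no conclusion is drawn from it. With 1 mouse left out in turn the difference ranged from 5.98 to 12.8 points. With annotated transcripts alone the 12-month difference was 2.27 points (exact permutation p = 0.183). The low part of Prkab2 in these sums rested mainly on an assembled 5-exon form, MSTRG.23035.4, which held 61.1% of its FPKM and led in all 15 mice, while the 8-exon protein-coding transcript ENSMUST00000045743 held 22.2%.

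Of Prkab1, the 8-exon protein-coding transcript ENSMUST00000111999 led in 8 of 15 mice and held 27.7% of the gene value, with a range from 11.6% to 55.7% between mice. Prkab1 held the transcripts with the smallest p among the 88. ENSMUST00000133098 (chromosome 5, 116014435 to 116024356) and ENSMUST00000148208 (116014650 to 116024451) are annotated as targets of nonsense-mediated decay and were both rare. ENSMUST00000133098 was at 0.113, 0.130, 0.137, 0.104 and 0.204 FPKM in the young mice and listed at 0 in 4 of the old mice, with 0.0256 in the other. ENSMUST00000148208 was at 0.180, 0.238, 0.120, 0.170 and 0.267 FPKM in the young mice and listed at 0 in the same 4 old mice, with 0.0309 in the other. For both, every young mouse was above every old one, and the 12-month-old mice spanned from 0.0161 to 0.202 and from 0.0281 to 0.243 FPKM. The log2 fold changes were -0.18 and -0.25, and the limma adjusted p-values over all transcripts were 0.114 and 0.115. Together they held 2.03% of the Prkab1 value at 3 months, 1.38% at 12 months and 0.0849% at 24 months. The retained-intron transcript ENSMUST00000147343, a larger part of the gene at 25.0%, was at 4.71 ± 1.08 FPKM at 3 months, 3.999 ± 1.72 at 12 months and 2.90 ± 0.655 at 24 months (SD, n = 5). Its log2 fold change between 24 and 3 months was -0.54 (standard error 0.17, limma adjusted p = 0.456). The reads are divided between overlapping transcripts by estimation, so a transcript listed at 0 need not be absent.

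Of the 88 transcripts, 5 had an unadjusted p under 0.05 between 24 and 3 months (7.9% of all transcripts did), 2 between 12 and 3 months (7.46%), and 8 of 87 between 24 and 12 months (4.47%). At an unadjusted p under 0.05 with an absolute log2 fold change above 1, the counts were 0, 0 and 1, where 0.795%, 0.784% and 0.402% of all transcripts passed. After adjustment 0 of them were under 0.05 (limma), and the smallest adjusted p was 0.114. The transcript past both limits was ENSMUST00000150135 of Prkag2.

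**Figure D4:**
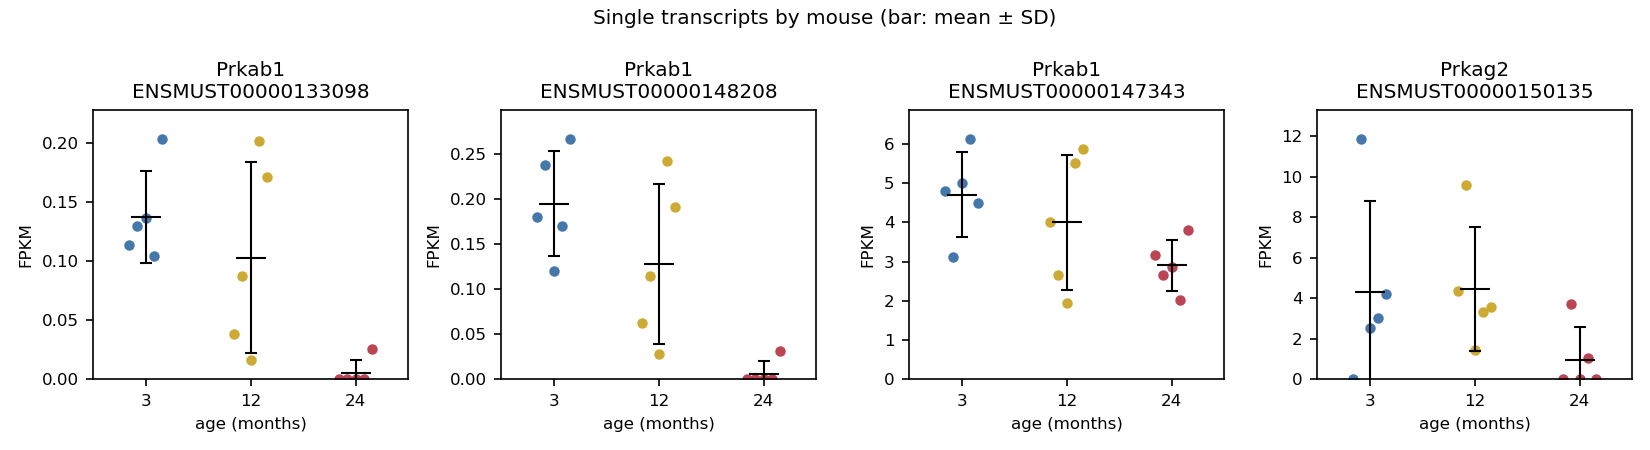
FPKM (vertical axes, starting at 0) of 3 Prkab1 transcripts and 1 Prkag2 transcript in each mouse, by age in months (horizontal axes); points are mice and black bars the mean ± SD of 5 mice. The decay-annotated Prkab1 transcripts spanned 0.104 to 0.267 FPKM at 3 months and reached at most 0.0309 at 24 months.

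The γ subunits followed are encoded by Prkag1 (γ1, chromosome 15, 98812358 to 98831508, minus strand) and Prkag2 (γ2, chromosome 5, 24859732 to 25101059, minus strand), and the γ3 gene Prkag3, described below, was not among the 10 genes. Prkag1 was at 10.5 ± 1.24, 9.58 ± 1.80 and 10.00 ± 1.16 FPKM at 3, 12 and 24 months (SD, n = 5), and its log2 fold change between 24 and 3 months was -0.07 (95% interval from -0.28 to 0.15). Its value was divided between the protein-coding ENSMUST00000168846 (43.4%) and an assembled form, also of 12 exons, MSTRG.13201.1 (56.6%). Prkag2 was at 30.2 ± 9.28, 29.8 ± 3.78 and 28.4 ± 2.51 FPKM (SD, n = 5). The young kidneys ranged from 19.6 FPKM in replicate 5 to 44.4 in replicate 6, while 4 of the old ones lay between 29.3 and 29.6 and replicate 34 was at 23.9. The share of Prkag2 in the sum of Prkag1 and Prkag2, which leaves out Prkag3, was 73.4 ± 4.45%, 75.7 ± 3.58% and 73.9 ± 3.12% (SD, n = 5), and the exact permutation p-values of its differences lay between 0.397 and 0.849.

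Prkag2 is transcribed from alternative starts that give long and short γ2 proteins. RefSeq places 3 starts on chromosome 5, and the 250 bases before each are shown because the one transcript past both limits begins at the proximal start (GRCm38.p6, minus strand, 5′ to 3′; capitals mark GC boxes, GGGCGG on either strand).
Prkag2 distal start, chr5:25100643-25100892: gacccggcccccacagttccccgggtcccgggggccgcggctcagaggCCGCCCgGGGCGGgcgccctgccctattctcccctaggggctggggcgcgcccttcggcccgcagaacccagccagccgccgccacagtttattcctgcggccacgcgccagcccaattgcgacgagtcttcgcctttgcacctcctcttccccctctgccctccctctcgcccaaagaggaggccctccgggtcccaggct
Prkag2 middle start, chr5:24995754-24996003: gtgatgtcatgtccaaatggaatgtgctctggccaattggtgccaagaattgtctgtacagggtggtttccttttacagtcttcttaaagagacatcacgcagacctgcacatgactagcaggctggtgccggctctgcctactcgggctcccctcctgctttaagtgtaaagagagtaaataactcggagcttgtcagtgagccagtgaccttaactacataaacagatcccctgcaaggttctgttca
Prkag2 proximal start, chr5:24908510-24908759: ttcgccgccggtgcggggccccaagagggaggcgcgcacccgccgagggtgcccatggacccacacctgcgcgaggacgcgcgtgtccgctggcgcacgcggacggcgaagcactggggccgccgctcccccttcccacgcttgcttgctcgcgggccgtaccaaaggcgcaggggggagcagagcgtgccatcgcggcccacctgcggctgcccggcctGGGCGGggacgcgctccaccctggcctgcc
The distal and proximal stretches were rich in G and C, at 73.2% and 77.2%, with 23 and 34 CpG dinucleotides, and the middle stretch was at 48.4% with 4. The medians over 32851 such stretches in RefSeq were 52.4% and 6. The distal stretch held 2 GC boxes, the proximal 1 and the middle 0, and 32.7% of all stretches held at least 1. The E-box CACGTG, the cyclic AMP response element TGACGTCA and the TATA box TATAAA were searched on both strands and found in 0 of the 3 stretches. Of all stretches 6.02%, 1.55% and 12.4% held them.

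Transcripts that began within 100 bases of the proximal start numbered 4 and summed to 10.0 ± 5.58 FPKM at 3 months, 11.5 ± 3.23 at 12 months and 6.48 ± 1.76 at 24 months (SD, n = 5). The old mice ranged from 5.01 to 9.45 FPKM and the 12-month-old mice from 7.57 to 15.8, so these ages overlapped. The 16-exon transcript of the distal start, ENSMUST00000030784, was at 2.20 ± 1.73, 1.65 ± 1.58 and 3.52 ± 1.53 FPKM, and the one of the middle start at 0.469 ± 0.304, 0.428 ± 0.117 and 0.109 ± 0.244 FPKM (SD, n = 5). The other 7 transcripts began elsewhere and summed to between 16.3 and 18.3 FPKM on average. Among them was the 5-exon retained-intron fragment ENSMUST00000135525, which led the gene in 11 of 15 mice with 26.6% of its FPKM. Another was the assembled 2-exon form MSTRG.26920.14 (25094927 to 25101059), which averaged 5.06 FPKM, or 17.1% of the gene value. It begins upstream of the distal start and spans it, outside the limit of 100 bases, so the distal value leaves it out. ENSMUST00000150135 (chromosome 5, 24869255 to 24908509, 10 exons, protein coding), which starts at the proximal start, was at 4.37, 9.58, 1.46, 3.32 and 3.56 FPKM in the 12-month-old mice. In the old mice it was listed at 0 in replicates 31, 33 and 35 and at 3.72 and 1.04 in replicates 32 and 34. In the young mice it was listed at 0 in replicate 5 and reached 11.9 FPKM in replicate 6. The ages overlapped, and the log2 fold change between 24 and 12 months was -1.63 (standard error 0.51, limma adjusted p = 0.838). Prkag2 overlaps 4 other genes, Prkag2os1 and Prkag2os2 among them, whose transcripts summed to 5.08 FPKM. Whether counting used strand is not given in the sources used here.

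Stk11 (chromosome 10, 80115803 to 80130682, plus strand) encodes LKB1, the kinase that activates AMPK. It was among the steadiest of the 10 genes at 3 months, at 22.5 ± 0.592 FPKM, with 22.4 ± 1.85 at 12 months and 24.1 ± 3.13 at 24 months (SD, n = 5). Of the old mice replicate 35 stood at 29.6 FPKM and the others between 21.9 and 23.4. The log2 fold change between 24 and 3 months was 0.09 (95% interval from -0.09 to 0.27). Protein-coding transcripts held 71.8% of the gene value, led by the 10-exon ENSMUST00000003152 with 53.0%. Decay-annotated and retained-intron transcripts held 8.31% and 9.39%.

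Mtor (chromosome 4, 148433665 to 148557683, plus strand) encodes the kinase of mTORC1 and mTORC2. It was at 42.7, 28.4, 39.9, 38.8 and 34.9 FPKM in the young mice, at 41.4, 41.2, 44.0, 45.8 and 44.2 in the 12-month-old mice, and at 35.5, 40.7, 36.6, 39.6 and 39.9 in the old mice. The 12-month-old mice were above all old mice and above all young mice but replicate 5. Between 24 and 12 months the log2 fold change was -0.17 (standard error 0.06, limma adjusted p = 0.714), and between 12 and 3 months it was 0.24 (standard error 0.10, limma adjusted p = 0.341). Between 24 and 3 months it was 0.07 (standard error 0.11), from 36.9 ± 5.54 to 38.5 ± 2.26 FPKM (SD, n = 5). The 2-sided exact permutation test gave p = 0.00794 for 24 against 12 months, the smallest that 5 mice against 5 allow, and 0.0238 for 12 against 3 months. With the values of each library scaled to an equal sum (TPM), the log2 fold change between 24 and 12 months was -0.09, with an unadjusted limma p of 0.178.

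ENSMUST00000103221, the full-length protein-coding transcript of 58 exons, held 24.0% on average, and its share ranged from 2.24% to 59.5% between mice, from 0.986 to 26.3 FPKM at 12 months alone. The assembled form MSTRG.26294.1 of 59 exons, which begins upstream of the annotated start, held 23.8% and ranged from 7.23% to 41.9%. With annotated transcripts alone, the log2 fold change between 24 and 12 months was 0.04 and between 12 and 3 months 0.24, with unadjusted limma p-values of 0.933 and 0.601. The 250 bases before the RefSeq start of Mtor are shown because listed transcripts of Mtor begin both near it and upstream of it (GRCm38.p6, plus strand, 5′ to 3′; capitals mark GC boxes).
Mtor start, chr4:148448332-148448581: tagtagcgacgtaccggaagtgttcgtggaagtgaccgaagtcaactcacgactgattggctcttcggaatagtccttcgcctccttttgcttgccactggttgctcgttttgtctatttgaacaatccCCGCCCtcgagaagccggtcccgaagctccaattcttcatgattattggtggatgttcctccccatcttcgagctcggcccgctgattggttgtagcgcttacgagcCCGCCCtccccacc
This stretch was at 54.4% G and C with 19 CpG dinucleotides and 2 GC boxes, and it held 0 of the other 3 motifs searched for Prkag2.

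Rptor (chromosome 11, 119602905 to 119899576, plus strand) encodes raptor, which brings substrates to mTORC1 and is phosphorylated by AMPK. It was at 15.5 ± 2.36, 16.1 ± 1.49 and 15.6 ± 2.44 FPKM at 3, 12 and 24 months (SD, n = 5), and the log2 fold change between 24 and 3 months was 0.01 (95% interval from -0.28 to 0.30). Retained-intron transcripts held 51.7% and decay-annotated ones 35.2% of this value. The full-length protein-coding ENSMUST00000026671 of 34 exons was listed at 0 in 14 of 15 mice. In 3-month-old replicate 8 it was at 4.61 FPKM, and the overlapping 33-exon ENSMUST00000147781 was listed at 0 in that same mouse, against 2.18 to 4.42 FPKM in the others. ENSMUST00000147781, annotated as a target of nonsense-mediated decay, led in 7 of 15 mice with 16.9% of the gene value, and protein-coding transcripts held 3.14% in all. Tsc2 (chromosome 17, 24595937 to 24632667, minus strand) encodes tuberin, which switches off the mTORC1 activator Rheb. It was at 19.7 ± 0.555, 19.4 ± 1.57 and 18.4 ± 1.28 FPKM (SD, n = 5), and the log2 fold change between 24 and 3 months was -0.09 (standard error 0.06, limma adjusted p = 0.496). Its protein-coding transcript ENSMUST00000097373 of 40 exons held 33.96%, and 10 assembled forms of 39 to 42 exons held the other 66.04%.

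Circular RNAs, closed loops of exons that lack free ends, were deposited with estimated counts. Those of the 10 genes numbered 15, with 4 from Mtor, 4 from Prkaa2, 4 from Prkag2, 2 from Rptor and 1 from Prkaa1, and 0 were listed for Prkab1, Prkab2, Prkag1, Stk11 and Tsc2. Circles of one gene that shared exons had higher counts the more exons they spanned. The Mtor circles of 2 and 9 exons that begin at the same position, circRNA10157 and circRNA3559, averaged 302.0 and 1128 estimated counts. Whether the counts are limited to reads across the closing junction is not given in the sources used here, and circles of one gene are not independent measurements.

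Among the 15 circles, 0 had an adjusted p under 0.05 between 24 and 3 months (edgeR quasi-likelihood test), where 13.3% of all circular RNAs did, and 5 had an unadjusted p under 0.05, where 28.8% did. Between 12 and 3 months the counts were 0 and 4, against 6.63% and 23.7% of all. Between 24 and 12 months 1 of the 15 passed the adjusted limit and 6 the unadjusted one, against 0.738% and 16.9% of all. The one was circRNA5407 of Mtor (chromosome 4, 148465891 to 148469077, 3 exons). In estimated counts scaled to an equal total of circular counts (CPM) it was at 62.3, 42.5, 52.3, 49.3 and 56.2 in the young mice, 72.1, 61.3, 60.7, 63.8 and 73.7 in the 12-month-old mice, and 53.6, 51.3, 56.3, 55.2 and 52.8 in the old mice. Every 12-month-old mouse was above every old one. It fell between 12 and 24 months by 0.34 on the log2 scale (edgeR adjusted p = 0.0397), and the difference between 24 and 3 months was -0.05 (adjusted p = 0.805). With 1 mouse left out in turn the adjusted p between 24 and 12 months lay between 0.0332 and 0.107 and stayed under 0.05 in 2 of 10 cases, without 12-month-old replicate 21 and without 24-month-old replicate 32. The other Mtor circles, circRNA10157, circRNA3559 and circRNA5408, had log2 fold changes of -0.20, -0.24 and -0.22 in the same comparison, with edgeR adjusted p-values of 0.218, 0.134 and 0.152. DESeq2 gave adjusted p-values of 0.00191 for circRNA5407 and 0.0479 for circRNA3559, so that 2 of the 15 circles passed with it, against 4.07% of all.

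**Figure D5:**
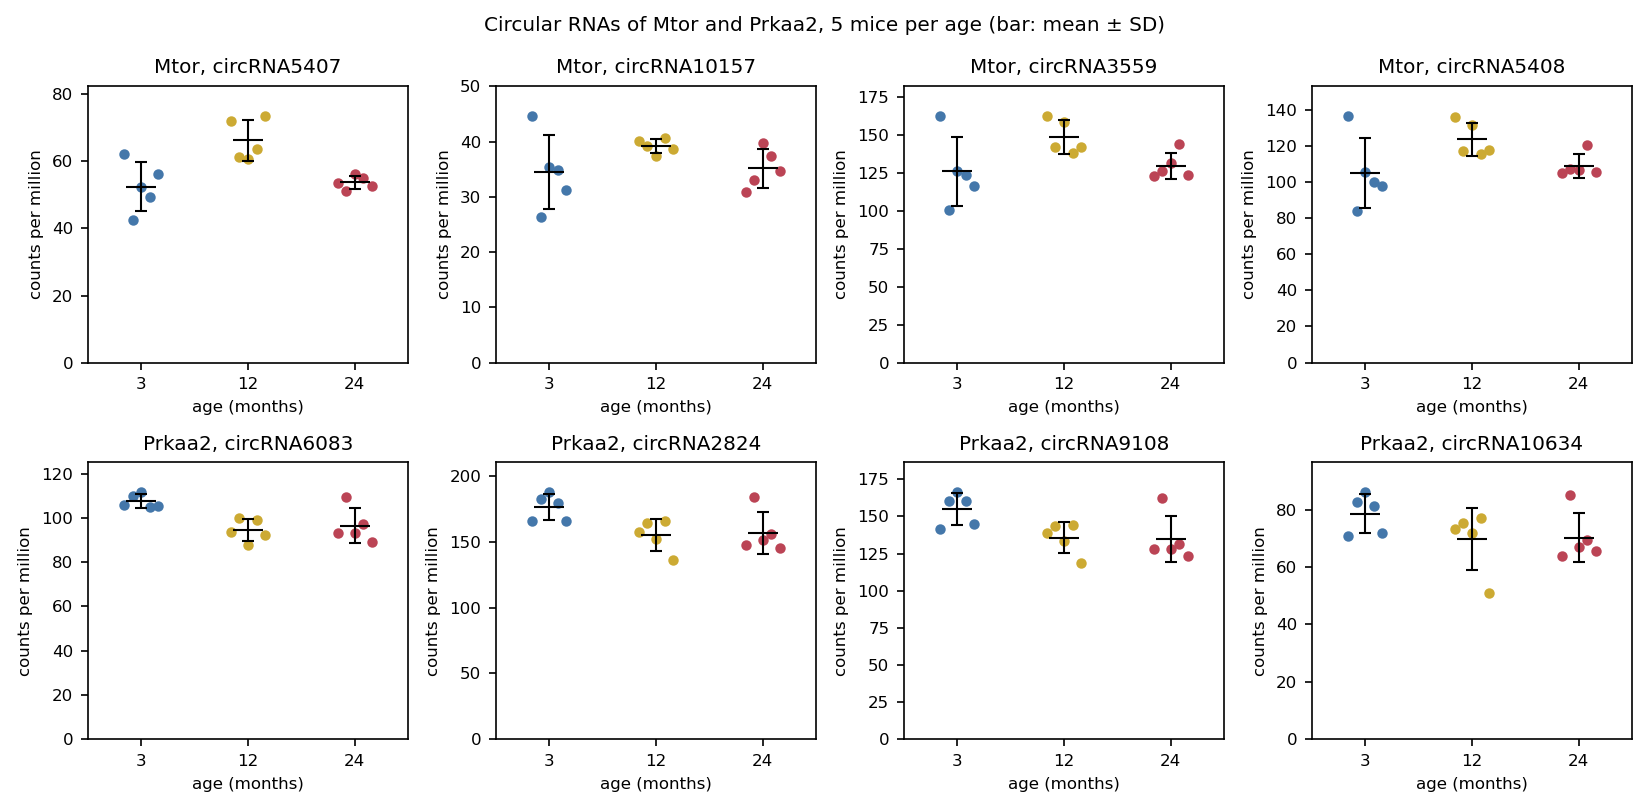
Estimated counts scaled to an equal total of circular counts (CPM; vertical axes, starting at 0) of 4 circular RNAs of Mtor (top) and 4 of Prkaa2 (bottom) in each mouse, by age in months (horizontal axes); points are mice and black bars the mean ± SD of 5 mice. Mtor circRNA5407 was between 60.7 and 73.7 at 12 months and between 51.3 and 56.3 at 24 months.

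The Prkaa2 circles lie between 105036699 and 105075555 on chromosome 4 and share exons. Between 24 and 3 months their log2 fold changes were -0.23 (circRNA6083), -0.25 (circRNA2824), -0.28 (circRNA9108) and -0.24 (circRNA10634), with edgeR adjusted p-values of 0.0693, 0.0850, 0.0741 and 0.131. The 24-month-old replicate 32 was the highest old mouse for all 4. Without it, a mouse singled out after its values were seen, the edgeR adjusted p-values were 0.0217, 0.0205, 0.0147 and 0.0281. For each circle this was the only 1 of 10 runs with 1 mouse left out that fell under 0.05. The highest adjusted p-values of these runs were 0.159, 0.182, 0.166 and 0.258. With all mice 13.3% of all circular RNAs passed, and their share without replicate 32 is not given here. DESeq2 gave 0.0303, 0.0477 and 0.0414 for the first 3 with all mice, and with it 15.8% of all circular RNAs passed. Between 12 and 3 months circRNA6083 ranged from 104.7 to 111.7 CPM in the young mice and from 87.6 to 99.8 in the 12-month-old mice without overlap, with a log2 fold change of -0.23 (edgeR adjusted p = 0.0767, and 0.0229 with DESeq2, with which 1 of the 15 circles and 10.3% of all passed). The Prkaa1 circle, circRNA363, was at 22.1 CPM in 3-month-old replicate 7, in which the linear Prkaa1 value was 2.37 FPKM, and between 24.1 and 29.2 in the other young mice. The most abundant Prkag2 circle, circRNA2743 of 10 exons, averaged 126.0 CPM, and the Prkag2 circles had adjusted p-values between 0.411 and 0.992. Of the Rptor circles, circRNA10413 had a log2 fold change of -0.21 between 24 and 3 months (adjusted p = 0.114) and circRNA9885, the most abundant of the 15, of -0.14 (adjusted p = 0.385).

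Around these 10 genes, 124 other genes of the pathways were listed in 10 groups by their role. Between 24 and 3 months 2 of the 124 passed the adjusted limit, a share near the 1.22% of all genes, and 13 were higher and 14 lower at an unadjusted p under 0.05 (21.8%, beside 14.9% of all genes). Between 12 and 3 months 10 were higher and 8 lower (14.5%, beside 14.3%), and between 24 and 12 months 7 and 9 (12.9%, beside 6.43%). The median log2 fold changes were -0.0085, 0.0026 and 0.01. In the KEGG AMPK pathway of the deposited annotation, which contains the 10 genes, 12 of 123 genes were higher and 12 lower between 24 and 3 months at an unadjusted p under 0.05 (19.5%, beside 14.9% of all genes). The study's enrichment used its own list of differentially expressed mRNAs, and enrichment was not tested here.

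Both genes past the adjusted limit were among the 25 genes listed as AMPK substrates and targets. The list was drawn up by name and took in the Pfkfb genes together. Whether AMPK acts on the product of either gene in these kidneys was not tested. Ulk2, a kinase that starts autophagy, was at 10.97, 10.8, 11.6, 10.5 and 11.6 FPKM in the young mice, 8.61, 8.66, 9.09, 9.73 and 9.21 at 12 months, and 7.98, 8.45, 7.11, 8.30 and 9.27 in the old mice. Every young mouse was above every older one. Ulk2 fell between 3 and 24 months by 0.40 on the log2 scale (standard error 0.07, limma adjusted p = 0.0346). Pfkfb1, which makes and breaks the glycolytic regulator fructose-2,6-bisphosphate, was at 0.454, 0.785, 0.738, 1.06 and 0.673 FPKM in the young mice, between 1.20 and 1.77 at 12 months, and at 1.81, 1.92, 1.55, 1.73 and 1.54 in the old mice. Every older mouse was above every young one. Pfkfb1 rose by 0.64 (standard error 0.11, limma adjusted p = 0.0346). With 1 mouse left out in turn the adjusted p stayed under 0.05 in 2 of 10 cases for Ulk2 (without 24-month-old replicates 32 or 35) and in 1 of 10 for Pfkfb1 (without 3-month-old replicate 8). The highest adjusted p came without 3-month-old replicate 7 for both, at 0.0834 and 0.0789. With annotated transcripts alone Ulk2 had a log2 fold change of -0.23 (adjusted p = 0.530), and with protein-coding transcripts alone Pfkfb1 had one of 0.41 (adjusted p = 0.181). In this group 4 genes were higher and 3 lower between 24 and 3 months at an unadjusted p under 0.05 (28%, beside 14.9% of all genes). The median log2 fold change was -0.01.

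In the other 9 groups 0 genes passed the adjusted limit in any comparison, and the genes with the smallest p between 24 and 3 months are given by their values. At an unadjusted p under 0.05 lay 14.9% of all genes, and the share of each group is given with its counts. In these small groups single genes move the share. Among the 10 upstream kinases and partners of AMPK 1 was higher and 0 lower at that limit (10%), with a median of 0.14. The genes with the smallest p were Prkag3 and Strada. Prkag3, the γ3 subunit gene known from skeletal muscle, was at 3.19 ± 0.696 and 4.54 ± 0.545 FPKM at 3 and 24 months (SD, n = 5; log2 fold change 0.41, limma adjusted p = 0.153). Strada, the pseudokinase that holds LKB1 in its active form, had a log2 fold change of 0.21 (adjusted p = 0.418). Among the 12 kinases that LKB1 activates beside AMPK 1 was higher and 0 lower (8.33%), with a median of 0.05. Brsk1 was at 0.289 ± 0.151 and 0.804 ± 0.281 FPKM without overlap (SD, n = 5; log2 fold change 0.48, limma adjusted p = 0.0938). The limma adjusted p of Brsk1 was 0.0376 with all 15 mice in 1 fit, 0.117 with a pseudocount of 0.1 and 0.106 with TPM. With 1 mouse left out in turn it lay between 0.0882 and 0.189. Nuak1 of the same group had a log2 fold change of 0.64 (adjusted p = 0.448).

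Among the 6 other mTORC1 partners 0 were higher and 2 lower at an unadjusted p under 0.05 (33.3%, beside 14.9% of all genes), with a median of -0.10. Deptor, an inhibitor of mTOR, showed the largest difference. It was at 16.8, 24.3, 13.5, 20.3 and 20.9 FPKM in the young mice and at 4.91, 23.3, 4.12, 4.57 and 3.61 in the old ones, and the 12-month-old mice spread from 3.94 to 20.6. Apart from replicate 32, every old mouse was below every young one. The log2 fold change was -1.47 (standard error 0.43, limma adjusted p = 0.141), and without replicate 32 it was -1.91 (adjusted p = 0.00579). Replicate 32 was singled out after its value was seen. With any other mouse left out the limma adjusted p lay between 0.187 and 0.251. Tti1, a scaffold for the folding of mTOR, had a log2 fold change of -0.17 (adjusted p = 0.335). Of the 4 genes of the TSC complex and Rheb, 0 lay under an unadjusted p of 0.05. Tsc1, the partner of tuberin, had a log2 fold change of -0.20 (adjusted p = 0.412) and Rhebl1 of 0.21 (adjusted p = 0.662), or -0.13 with protein-coding transcripts alone.

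The Rag GTPases and Ragulator carry mTORC1 to the lysosome. Among their 13 genes 2 were higher and 3 lower at an unadjusted p under 0.05 (38.5%, beside 14.9% of all genes), with a median of -0.07. Rragb had a log2 fold change of 0.32 (adjusted p = 0.169) and the arginine sensor Slc38a9 of 0.33 (adjusted p = 0.297). With annotated transcripts alone that of Slc38a9 was -0.01, and with all class codes that of Rragb was 0.08. Among the 16 genes of the GATOR and KICSTOR complexes and amino acid sensors 2 were higher and 1 lower (18.75%), with a median of 0.05. Sesn1, a leucine sensor, had a log2 fold change of -0.22 (adjusted p = 0.173) and Mios of 0.33 (adjusted p = 0.219). Among the 17 targets and outputs of mTORC1 2 were higher and 3 lower (29.4%), with a median of -0.04. Larp1, which holds back the translation of ribosomal protein mRNAs, was at 15.4 ± 1.40 and 12.6 ± 1.20 FPKM (SD, n = 5; log2 fold change -0.27, limma adjusted p = 0.166). With annotated transcripts alone the log2 fold change of Larp1 was 0.24 and with protein-coding transcripts alone 0.50. Rps6kb1, the S6 kinase gene, was at 12.4 ± 1.89 and 16.4 ± 2.44 FPKM (SD, n = 5; log2 fold change 0.37, limma adjusted p = 0.188). Among the 17 genes of mTORC2 and the insulin arm 1 was higher and 2 lower (17.6%), with a median of -0.08. Pik3r1 had a log2 fold change of 0.31 (adjusted p = 0.171). Irs2, an insulin receptor substrate, ranged from 9.83 to 41.0 FPKM in the young and from 1.58 to 19.2 in the old mice, with a log2 fold change of -1.47 (adjusted p = 0.227). Of the 4 stress inhibitors of mTORC1, 0 lay under an unadjusted p of 0.05, and all 4 had a negative log2 fold change between 24 and 3 months, with a median of -0.28. Ddit4 and Ddit4l had -0.51 and -0.46 (adjusted p = 0.557 and 0.662).

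The gene most alike in pattern to each of the 10 genes was sought over the 15 mice among 13445 other genes with a mean of at least 1 FPKM, by Pearson's r of log2(FPKM + 1). These were Gtf3c2 for Prkag1 (0.90), Ap1s1 for Rptor (0.90), Snhg20 for Mtor (0.89), Lman2l for Prkaa2 (0.87), Pradc1 for Tsc2 (0.87), Oxsr1 for Prkaa1 (0.86), Gm26780 for Prkab2 (0.85), Myo5c for Prkag2 (0.83), Slc10a5 for Stk11 (0.82) and Hsf1 for Prkab1 (0.80). The values are the highest of many and describe these 15 libraries, in which all genes of a mouse share 1 library and its depth. Within the 10 genes the highest r was 0.44 (Mtor and Prkab2) and the lowest -0.63 (Mtor and Prkag2). Prkaa2 and Prkab2 (0.43), Rptor and Tsc2 (0.42) and Stk11 and Prkab2 (0.41) came next.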

How the data were processed

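Kidney RNA of 15 mice was sequenced after removal of ribosomal RNA in a stranded kit per the labels, whereas the study's methods describe oligo(dT) beads. The authors mapped reads to GRCm38, assembled transcripts with StringTie and deposited FPKM and coverage (a signal used here for depth) per transcript. Estimated counts of circular RNAs were also deposited, with the pipeline not given in the sources used here; their deposited FPKM was not used. Titles begin with 3M at every age, and groups follow the age label. Columns of 0 other samples were present. FPKM are not counts, so gene sums and transcripts were tested with limma 3.58.1 (trend = TRUE, pseudocount 1, features above 0 in at least 1 mouse compared, R 4.3.3) with Benjamini-Hochberg adjustment over all features. Estimated counts were rounded and tested with edgeR 4.0.16 (TMM, above 0 in at least 5 of 10 mice); DESeq2 1.42.0 was an alternative. Shares, and the values of the 10 genes on the log2(FPKM + 1) scale, were compared with 2-sided exact permutation tests over 252 assignments. Both models were tested on simulated data. Transcript classes came from GENCODE M21 by identifier, and promoters and starts from RefSeq, which held all 10 genes. The genes and lists were chosen with earlier results of these data known. Named beside the 10 genes are, per list, each gene with an adjusted p under 0.05 or otherwise the 2 with the smallest p between 24 and 3 months, the leading transcript of each gene, the most abundant circle of each host, and transcripts and circles that passed a limit. Other transcripts and circles, and the Prkag2 starts, were singled out after their values were seen. Reads per value are not known for FPKM, and precision is the spread between 5 mice.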

Additional observations from a re-analysis of the deposited data

Results flagged for a closer look

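In 84 groups of 5 mice tested for a value far from the others (10 genes, 3 paralog shares and 15 circular RNAs at 3 ages), 11 such values were found; chance gives about 1 in 20 groups, and circles of one gene are not independent. Among the gene values these were Prkaa2 in 24-month-old replicate 33 (30.5 FPKM), Prkab1 in 3-month-old replicate 5 (20.5 FPKM) and in 24-month-old replicate 31 (20.5 FPKM), Prkag2 in 24-month-old replicate 34 (23.9 FPKM, below the others) and Stk11 in 24-month-old replicate 35 (29.6 FPKM). Among the shares it was that of Prkaa2 in 12-month-old replicate 17 (59.5%, below the others). Among the circular RNAs, 24-month-old replicate 32 was far above the others for circRNA10634 (85.0 CPM), circRNA2824 (184.6 CPM) and circRNA9108 (162.3 CPM) of Prkaa2, which share exons. The others were circRNA10634 in 12-month-old replicate 21 (51.0 CPM, below the others) and circRNA5408 of Mtor in 24-month-old replicate 34 (120.6 CPM). No mouse was far from the others in more than 1 of the 10 genes.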

How the results depend on the processing

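Across the alternatives run, 0 of the 10 genes had an adjusted p under 0.05 in any comparison, with the lowest value at 0.0853 (Prkab1 between 24 and 3 months without 24-month-old replicate 31). The cause of the changes below was not tested. Counts are given for 24 against 3, 12 against 3 and 24 against 12 months. All genes past the adjusted limit numbered 386, 79 and 1. They were 190 and 27 in the first 2 comparisons with annotated transcripts alone, 25 in the second with all class codes, 678, 299 and 0 with all 15 mice in 1 fit, 3 in the third with a pseudocount of 0.1, and 104 and 49 in the first 2 with protein-coding transcripts, an alternative chosen after seeing the data. With 1 mouse left out in turn they ranged from 109 (without 3-month-old replicate 9) to 411, from 12 (without 3-month-old replicates 5 or 6) to 70 and from 1 to 7 (without 24-month-old replicate 31). Of the 10 genes, 0, 2 and 1 had an unadjusted p under 0.05. Between 24 and 3 months this was 2 with median-ratio scaling (Prkab1 and Tsc2), 1 with all mice in 1 fit, and 0 to 2 with 1 mouse left out (2 without 24-month-old replicate 31). Between 12 and 3 months it was 1 with a pseudocount of 0.1, with a filter at 1 FPKM or with all mice in 1 fit, 0 with TPM, with annotated or with protein-coding transcripts, and 0 to 2 with 1 mouse left out. Between 24 and 12 months it was 0 with TPM, annotated transcripts, protein-coding transcripts or all mice in 1 fit, and 1 to 2 with 1 mouse left out. Transcripts of the 10 genes past both limits numbered 0, 0 and 1, were 3, 1 and 7 with a pseudocount of 0.1, where 4.89%, 4.7% and 2.73% of all transcripts passed, and 0 to 2, 0 to 1 and 1 to 2 with 1 mouse left out. Circular RNAs of the 10 genes past the adjusted limit numbered 0, 0 and 1, were 3, 1 and 2 with DESeq2, where 15.8%, 10.3% and 4.07% of all circular RNAs passed, and ranged from 0 to 5, from 0 to 1 and from 0 to 1 with 1 mouse left out, also chosen after seeing the data. The 5 came without 24-month-old replicate 32. With 1 mouse left out, the difference in share ranged for Prkaa2 from -10.8 to -4.67, from -2.65 to 2.92 and from -10.8 to -5.74 percentage points, for Prkab2 from 5.98 to 12.8, from 3.40 to 5.19 and from 1.74 to 8.59, and for Prkag2 from -1.31 to 1.71, from 0.508 to 3.53 and from -2.96 to -0.780. With annotated transcripts that of Prkab2 between 12 and 3 months was 2.27, that of Prkaa2 between 12 and 3 months 0.347, and that of Prkag2 -0.0117 between 12 and 3 and -1.80 between 24 and 3 months. Of the 540 log2 fold changes of the 10 genes under an alternative, 448 kept their sign and their side of an unadjusted p of 0.05, 27 lost that limit, 11 gained it and 54 turned sign, 27 of them with 1 mouse left out. With TPM these were Prkaa2 (-0.0165) and Prkag2 (-0.0239) between 12 and 3 months and Prkag2 (0.00988), Rptor (0.0236) and Tsc2 (0.00569) between 24 and 12 months. With median-ratio scaling these were Stk11 (-0.0236), Mtor (-0.0452) and Rptor (-0.100) between 24 and 3 months and Prkaa1 (-0.0211), Prkaa2 (-0.0954), Prkag2 (-0.108) and Rptor (-0.0691) between 12 and 3 months. With annotated transcripts alone these were Prkag1 (0.0696) and Rptor (-0.0195) between 24 and 3 months, Prkag1 (0.0326), Stk11 (0.0310) and Tsc2 (0.0431) between 12 and 3 months and Prkab2 (-0.0723) and Mtor (0.0408) between 24 and 12 months. With protein-coding transcripts alone these were Prkag1 (0.0696) and Rptor (-0.595) between 24 and 3 months, Prkab1 (0.0908), Prkag1 (0.0326), Rptor (-0.690) and Tsc2 (0.0431) between 12 and 3 months and Mtor (0.188) and Rptor (0.0949) between 24 and 12 months. For 24 against 3 months the ranges that cross 0 with 1 mouse left out were Mtor from -0.0204 to 0.123, Prkaa1 from -0.0121 to 0.441, Prkag2 from -0.179 to 0.106 and Rptor from -0.0842 to 0.0746. For 12 against 3 months the ranges that cross 0 with 1 mouse left out were Prkaa1 from -0.217 to 0.236, Prkaa2 from -0.108 to 0.192, Prkab1 from -0.0853 to 0.0287, Prkag2 from -0.113 to 0.171, Rptor from -0.0342 to 0.113 and Stk11 from -0.0417 to 0.0258. For 24 against 12 months the ranges that cross 0 with 1 mouse left out were Prkab2 from -0.131 to 0.161, Prkag1 from -0.0144 to 0.139 and Rptor from -0.128 to 0.0153. No paired analysis was possible because the ages share no replicate numbers.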

Other observations

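Sesn3, a sestrin that restrains mTORC1, was singled out after its values were seen because it was low at 12 months alone. It was at 9.55, 10.5, 13.3, 12.3 and 7.87 FPKM at 3 months, at 5.30, 6.11, 7.17, 5.74 and 5.62 at 12 months, and at 12.3, 10.6, 7.81, 13.1 and 12.8 at 24 months. Every 12-month-old mouse was below every mouse of the other ages. The log2 fold change was -0.73 between 12 and 3 months (limma adjusted p = 0.0666) and 0.80 between 24 and 12 months (limma adjusted p = 0.581).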
